A study of Mus musculus with 24 samples.

Results

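The Platr genes are a set of mouse genes whose names stand for pluripotency-associated transcript, and all genes whose symbol is Platr followed by a number were taken from the gene count tables. There were 30 such genes among the 51912 genes of the tables. They were measured by RNA-seq in 9 libraries, 3 each of embryonic stem cells (ESC), neuronal progenitors (NP) and TET triple-knockout cells (TET TKO). The ESC are the wild-type TC-1 line (strain C57BL/6 X 129S5), grown with LIF, the cytokine that keeps mouse ESC undifferentiated. The NP are wild-type cells of the same strain made from ESC as floating aggregates treated with retinoic acid, so they are an in vitro population and not a sorted cell type. The TET TKO are ESC lacking TET1, TET2 and TET3, the enzymes that oxidise methylated cytosine, and their strain is given as C57BL/6 X 129/sv. Strain, line and genotype cannot be told apart in the comparison of TET TKO with ESC. The study asked how transcription factors shape DNA methylation in these cells, and the expression tables gave the cellular background of each state.

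Long noncoding RNAs are transcripts that are usually spliced and polyadenylated like messenger RNA but have no long open reading frame that is known to be translated. The Platr family was named in mouse ESC for transcripts that are abundant in the pluripotent state and decline as cells leave it, so a lower level after differentiation is what the name describes. Pluripotency itself rests on a core of transcription factors that includes OCT4 (gene Pou5f1), SOX2 and NANOG. For most members of the family no molecular role is established, and the members are therefore ordered here by their level in ESC.

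Of the 30 genes, the GENCODE M21 annotation types 20 as long intergenic RNAs, 6 as processed transcripts, 1 as antisense and 1 as sense intronic. Platr17 and Platr25 are typed as protein coding, so the label noncoding does not cover these 2 in that annotation. Exon lengths ran from 375 bases (Platr13) to 6180 bases (Platr25). Reads were counted without regard to strand, which matters where exons of different genes overlap. This was so for 4 genes: Platr16 shares 43.6% of its exon bases with the pseudogene Gm13230, Platr9 shares 12.8% with Cga on the opposite strand, Platr31 shares 8.3% with Tigar and Platr30 shares 7.9% with Gm26553. In addition, all of the annotated transcript sequence of Platr2 and of Platr30, and 48.6% of that of Platr17, matched transcripts of other genes at 95% identity or more over at least 50 bases, so reads from there can be lost or misplaced. Among the other genes at appreciable levels, this share was 31.5% for Platr16, 19.6% for Platr25, 18.2% for Platr28 and at most 4.8% for the rest.

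RefSeq promoter windows (250 bases before to 50 after an annotated start, build GRCm38.p6) were found for 13 of the 30 genes, in 15 windows. The CpG dinucleotide is the site that DNA methylation and the TET enzymes act on, and these windows held few of them. The 15 windows had between 0 and 9 CpGs with a median of 4, whereas the median over all 32851 windows in the table was 7 and 43.5% of them had 10 or more. No methylation measurement at these sites was analysed here. The windows of Platr10, Platr14 and Platr7 are shown because these genes carry most of the expression or the largest differences below, that of Platr20 because it had most CpGs, and that of Platr21 because it was alone in holding the octamer. Capitals mark every CpG, and each sequence is written in the direction of transcription.
Platr10: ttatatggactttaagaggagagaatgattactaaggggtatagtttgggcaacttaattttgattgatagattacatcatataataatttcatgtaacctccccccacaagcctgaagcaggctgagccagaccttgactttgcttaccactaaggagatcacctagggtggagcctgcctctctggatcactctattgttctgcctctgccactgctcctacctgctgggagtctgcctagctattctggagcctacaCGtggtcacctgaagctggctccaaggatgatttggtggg
Platr14: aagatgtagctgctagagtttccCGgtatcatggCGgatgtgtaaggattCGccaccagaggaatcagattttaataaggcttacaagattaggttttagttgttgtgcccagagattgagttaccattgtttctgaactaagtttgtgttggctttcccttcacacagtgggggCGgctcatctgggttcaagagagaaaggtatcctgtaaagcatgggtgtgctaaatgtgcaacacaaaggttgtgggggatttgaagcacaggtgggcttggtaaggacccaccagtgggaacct
Platr7: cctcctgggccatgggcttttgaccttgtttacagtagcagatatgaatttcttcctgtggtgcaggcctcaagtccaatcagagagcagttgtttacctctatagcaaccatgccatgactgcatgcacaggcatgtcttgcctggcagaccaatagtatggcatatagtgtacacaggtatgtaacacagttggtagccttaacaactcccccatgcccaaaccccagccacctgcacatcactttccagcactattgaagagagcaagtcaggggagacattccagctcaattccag
Platr20: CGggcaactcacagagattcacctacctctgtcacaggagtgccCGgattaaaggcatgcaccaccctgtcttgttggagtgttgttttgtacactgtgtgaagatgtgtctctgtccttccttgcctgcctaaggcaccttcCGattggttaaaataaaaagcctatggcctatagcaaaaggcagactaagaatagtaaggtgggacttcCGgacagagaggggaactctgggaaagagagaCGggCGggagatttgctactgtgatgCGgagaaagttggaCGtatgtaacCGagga
Platr21: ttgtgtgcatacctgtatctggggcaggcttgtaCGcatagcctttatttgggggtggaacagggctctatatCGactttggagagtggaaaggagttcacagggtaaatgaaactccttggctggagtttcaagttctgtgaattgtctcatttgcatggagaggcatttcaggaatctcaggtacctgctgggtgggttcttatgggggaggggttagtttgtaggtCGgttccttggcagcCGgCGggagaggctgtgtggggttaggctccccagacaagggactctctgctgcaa
Platr10 lies at chr3:75655682-75655981 on the minus strand with 1 CpG, and Platr7 at chr10:84553289-84553588 on the minus strand with 0. Platr14 lies at chr2:104559209-104559508 on the plus strand with 4 CpGs, and its RefSeq start is 296 bases from the start of the gene in the Ensembl models used for counting. Platr20 lies at chr11:51220369-51220668 on the minus strand with 9 CpGs, and Platr21 at chrX:139357689-139357988 on the minus strand with 5. For Platr3 and Platr6 the RefSeq start was 1182 bases or more from the Ensembl start, so these windows may not be the promoters of the counted transcripts.

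Short sequence motifs of pluripotency factors were searched on both strands of these windows. The octamer ATTTGCAT, bound by OCT4, was found in 1 of 15 windows (Platr21) and in 1.74% of all windows. The SOX motif ACAATG was found in 2 windows (Platr8 and Platr14) and in 12.6% of all windows, and the KLF motif GGGTGTGG in 1 window (Platr26) and in 3.56% of all. These are matches of letters in a 300-base window and not binding sites, and windows without a match say nothing about the factors. No window of a Platr gene resembled that of another Platr gene at 80% identity over 150 bases or more. Windows of Platr3, Platr5, Platr9 and Platr20 resembled those of 2, 2, 5 and 1 other genes, respectively.

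The libraries held 20570050 to 23976914 counts in ESC, 20519702 to 22132988 in NP and 80704741 to 93210102 in TET TKO, so that a low transcript was measured with more counts in TET TKO. Summed RPKM (reads per kilobase of exon and library size, the latter scaled by TMM) of 5 ESC markers was 1350 to 1380 in ESC, 52.2 to 65.5 in NP and 862 to 1040 in TET TKO (where 1 of the 5, Zfp42, was called lower), and 8 of 9 neural markers were called higher in NP. Endoderm markers rose as well in NP, from 1.07 to 1.83 in ESC to 18.7 to 22.9, with 3 of 4 tested genes called higher. Mesoderm markers summed to 1.27 to 2.72 in ESC, 0.437 to 1.29 in NP and 6.69 to 13.2 in TET TKO. The higher sum in TET TKO came from Hand1 alone, which was called higher, with a mean of 9.89 RPKM against 0.504 in ESC. The means of T and Kdr were lower in TET TKO, at 0.202 against 0.787 and 0.126 against 0.536. Mesp1 was near 0 in both, at 0.062 and 0.0681. Trophoblast markers summed to 1.18 to 1.65 in ESC, 0.947 to 1.95 in NP and 3.08 to 4.02 in TET TKO. The sum in NP joined opposite differences. Eomes was called lower there, with a mean of 0.106 RPKM against 1.28 in ESC, and Cdx2 had 1.36 against 0.163 and was not called. Most of the TET TKO sum was Eomes, with a mean of 3.0 RPKM, which was not called. The targeted Tet1 stood at 65.9, 60.8 and 68.5 RPKM in ESC and 13.2, 16.1 and 11.3 in TET TKO, and Tet2 at 20.5, 20.3 and 16.1 against 2.42, 2.70 and 2.32. Tet3 was low in both, at 0.631 to 0.770 and 0.474 to 0.617 RPKM. The study's methods call the replicates biological and the labels give only their numbers, so p-values describe the spread between these libraries.

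In ESC the family was led by a small number of abundant genes. The 30 genes together gave 355, 360 and 354 CPM (counts scaled to library size), and Platr10 and Platr14 alone made up 52.7% to 58.2% of these counts. Platr10 had 65.9, 68.5 and 54.9 RPKM and Platr14 had 51.3, 44.3 and 69.6 RPKM in the 3 libraries. Their ranges overlapped, so neither was clearly the higher. Platr3 followed with 36.9, 32.9 and 33.6 RPKM, below every library of Platr10 and Platr14. Platr17 had 24.0, 24.9 and 17.4 RPKM and Platr7 had 19.4, 22.4 and 15.7, and these ranges overlapped too. Platr27 (12.0, 14.0 and 13.8 RPKM) and Platr11 (12.7, 13.2 and 14.2) did not differ beyond their spread, and Platr26 was lower at 7.33, 8.78 and 7.74 RPKM.

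A middle tier lay between 1 and 6 RPKM in ESC. Platr25 had 5.19, 5.50 and 4.98 RPKM, Platr4 had 4.79, 5.09 and 4.68, and Platr20 had 3.61, 4.88 and 4.64. Platr12 had 3.51, 3.77 and 2.99 RPKM, Platr28 had 3.16, 3.11 and 3.11, and Platr6 had 2.46, 2.57 and 2.84. Platr23 (2.45, 2.78 and 1.82), Platr22 (2.24, 2.15 and 2.29) and Platr21 (1.84, 1.81 and 1.75) came next. The lowest of this tier were Platr8 (1.29, 1.22 and 1.78 RPKM), Platr5 (1.40, 1.52 and 1.35) and Platr16 (1.13, 1.86 and 0.917), whose ranges overlapped each other. These 20 genes had a mean log2(1 + RPKM) of 1 or more, the limit for high expression in the study. The same limit was passed by 18 Platr genes in TET TKO and by 2 in NP, Platr14 and Platr25.

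The remaining 10 genes (Platr1, 2, 9, 13, 15, 19, 29, 30, 31 and 32) had 0 to 22 counts over the 3 ESC libraries and a mean of at most 0.224 RPKM. Platr2, Platr13 and Platr30 had 0 counts in ESC, which allows up to 3 counts over the group. Platr2 had 0 counts in all 9 libraries, and its transcript is one of those repeated in full elsewhere. Platr13 had 1 count and Platr30 had 2 counts in all, each in TET TKO.

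**Figure D1:**
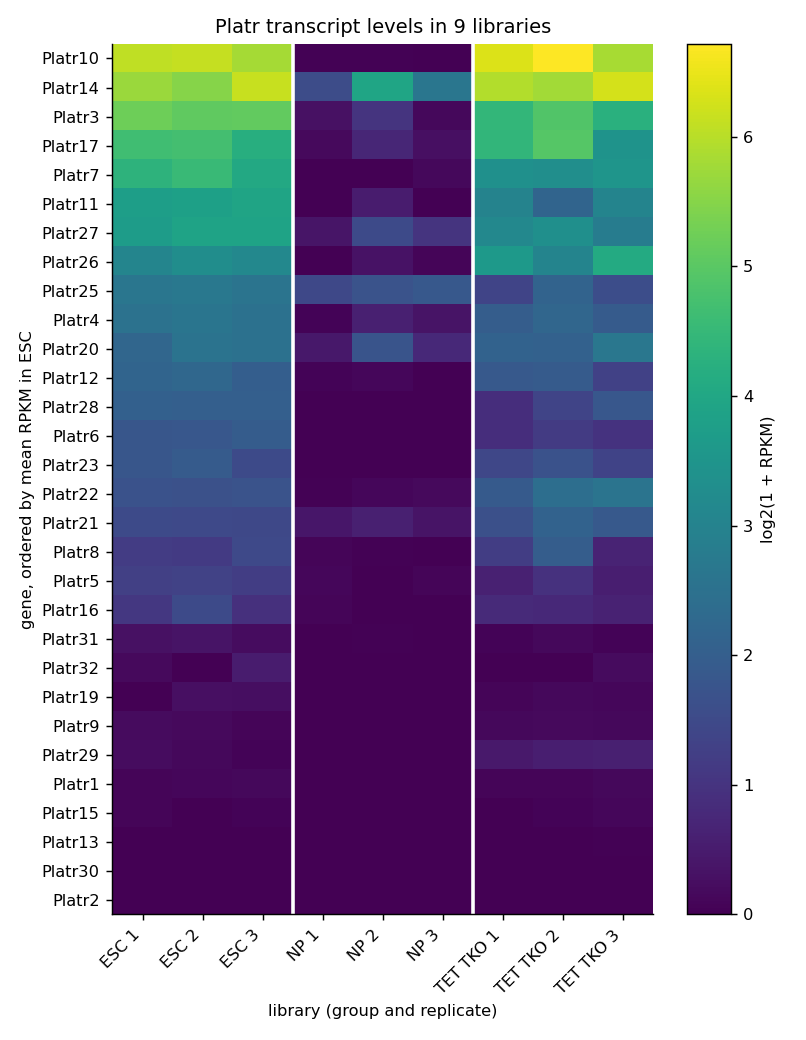
Level of each of the 30 Platr genes (rows, ordered by mean RPKM in ESC) in the 9 libraries (columns), coloured by log2(1 + RPKM). ESC and TET TKO show graded levels from Platr10 down, while in NP Platr14 and Platr25 stand out and most other genes are at or near 0.

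In NP nearly the whole family was lower than in ESC. Summed over the 30 genes, the 3 NP libraries had 16.4, 45.3 and 28.3 CPM, a mean of 30.0 ± 14.5 (SD, n = 3) against 356 ± 3.21 in ESC, or 8.43% of the ESC mean. By edgeR's quasi-likelihood test with Benjamini-Hochberg adjustment, 17 of the 20 genes that passed the filter (1 RPKM in at least 1 library) were called lower in NP, at an adjusted p below 0.001 and a fold of 3 or more. In the same fit 9.98% of 15197 genes were called lower. Most of the 20 genes reached 1 RPKM in ESC libraries alone, so the filter admitted them through the group where they were high. Such genes could hardly be called higher in NP, whereas the backgrounds also include genes admitted through NP. Called higher were 0 Platr genes, at a background of 12.4%, and at an unadjusted p under 0.05 there were also 0 higher and 20 lower, where 34.4% of all genes tested were higher and 33.1% lower. DESeq2 called 18 lower and 0 higher, where it called 12.0% of all genes lower and 13.7% higher. In bulk RNA, fewer cells that express a transcript and less of it per cell cannot be told apart.

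All 30 genes, rather than those that passed the filter, were looked at next. In 24 of 30 all 3 NP libraries lay below all 3 ESC libraries, a pattern seen in 25.4% of all genes with a read, and 6 overlapped, of which Platr2, Platr13 and Platr30 had no ESC counts. Pooled over libraries, 26 genes had more than 3 counts in ESC or NP, and the other 4 were at or under this floor in both. All 26 were lower in NP, 23 of them by 3-fold or more. Each of the 26 had more than 3 counts in ESC, and none entered through NP alone. This floor thus also admitted genes through the group where they were high, so the counts are a description and no independent test. The share of all genes that meet the same rule was not computed. Their median log2 ratio was -4.79, counting 7 genes with 0 NP counts at their bound. Without the filter on low values, 19 Platr genes were called lower, at a background of 8.18%. The median fitted log2 fold change was -5.73 over the 20 tested genes and 0.03 over all genes tested.

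Platr10, Platr7 and Platr23 were all but absent from NP. Platr10 had 2448, 2611 and 2356 counts in ESC and 1, 1 and 0 in NP. The pooled ratio was 3770 with a 95% counting interval of 1040 to 31100, at an adjusted p of 2.58e-07 (edgeR). Platr7 had 552, 654 and 515 counts in ESC and 0, 0 and 3 in NP, a ratio of 583 (199 to 2830). Platr23 had 127, 148 and 109 counts against 0, 0 and 1, a ratio of 390 (69.6 to 15400). In each of these 3 genes all NP libraries lay far below all ESC libraries. Their counting intervals overlapped in part, so the 3 ratios are not ranked.

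Platr6 and Platr28 were at 0 counts in every NP library. Platr6 had 95, 102 and 127 counts in ESC, so that it was at least 110-fold lower in NP, taking 3 counts over the NP group as the floor. Platr28 had 87, 88 and 99 counts in ESC and was at least 92.8-fold lower. Their adjusted p-values (edgeR) were 2.97e-05 and 3.57e-05. Counting intervals and floors in this text cover counting error only.

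A second set kept a trace of signal in NP. Platr3 had 324, 296 and 340 counts in ESC and 2, 10 and 1 in NP, a log2 fold change of -6.22 ± 0.52 (SE) at an adjusted p of 1.99e-05 (edgeR). Platr17 had 412, 439 and 345 counts against 2, 13 and 4 (log2 fold change -6.01 ± 0.48). Platr26 had 100, 123 and 122 counts against 0, 4 and 1 (-6.05 ± 0.58), and Platr11 had 105, 112 and 135 against 0, 4 and 0 (-6.37 ± 0.69). In each of the 4 the highest NP library stayed far below the lowest ESC library. The second NP library held most of what remained, and without it the fitted values were -7.62 for Platr3, -7.01 for Platr17 and -7.53 for Platr26, while Platr11 was left with 0 NP counts. Platr12 had 68, 75 and 67 counts against 1, 2 and 0, a pooled ratio of 71.1 (24.0 to 348).

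Genes with fewer counts in ESC were called lower as well. Platr22 had 77, 76 and 91 counts in ESC and 1, 3 and 5 in NP (log2 fold change -4.74 ± 0.45). Platr8 had 37, 36 and 59 counts against 2, 1 and 0, a pooled ratio of 44.7 (15.0 to 219). Platr16 had 16, 27 and 15 against 1, 0 and 0, a ratio of 58.9 (10.2 to 2370). Platr5 had 17, 19 and 19 against 1, 0 and 1, a ratio of 27.9 (7.37 to 236). Leaving out the NP library with most of the few reads moved the fitted log2 fold change to -6.22 for Platr8 (without the first) and -6.81 for Platr12 (without the second), and left Platr7 and Platr23 (without the third) and Platr16 (without the first) with 0 NP counts. The calls of Platr5 and Platr16, at adjusted p-values of 0.000388 and 0.000561 (edgeR), were lost whenever any 1 of the 6 libraries was left out.

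Partial reductions were seen in a further group. Platr4 had 260, 284 and 294 counts in ESC and 3, 31 and 16 in NP (-4.12 ± 0.53), and Platr27 had 161, 192 and 214 against 4, 28 and 15 (-3.64 ± 0.49). Platr21, which spans 22 exon blocks on the X chromosome, had 158, 160 and 174 counts against 29, 50 and 26 (-2.27 ± 0.29). It was the called gene with the smallest difference, at an adjusted p of 0.000194 (edgeR). Without the second NP library the values of Platr4 and Platr27 were -4.88 and -4.31. The calls of Platr4, Platr21 and Platr27 were lost in 3 or 4 of the 6 fits that left out a library.

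The other 3 tested genes were not called. Platr14 had 1724, 1529 and 2701 counts in ESC and 65, 552 and 190 in NP, a log2 fold change of -2.95 ± 0.59 with an adjusted p of 0.00242 (edgeR). Its NP libraries thus ranged from 1.93 to 14.4 RPKM, all below the lowest ESC library at 44.3. Platr20 had 83, 115 and 123 counts against 8, 62 and 18 (-1.94 ± 0.58, adjusted p of 0.0179, edgeR). Without the second NP library the log2 fold changes were -3.97 and -3.03 and both genes were called. With all libraries, both were also called without the filter on low values, and Platr14 was called by DESeq2, in the fit of all 3 groups and with the replicate number as a block. Platr25, one of the pair typed as protein coding, kept most in NP, with 683, 742 and 756 counts against 229, 339 and 375, and its 2.39-fold difference (log2 fold change -1.25 ± 0.19, adjusted p of 0.000448, edgeR) stayed under the limit of 3. In NP, Platr25 made up 30.8% to 65.6% of all Platr counts and Platr14 18.6% to 50.1%.

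**Figure D2:**
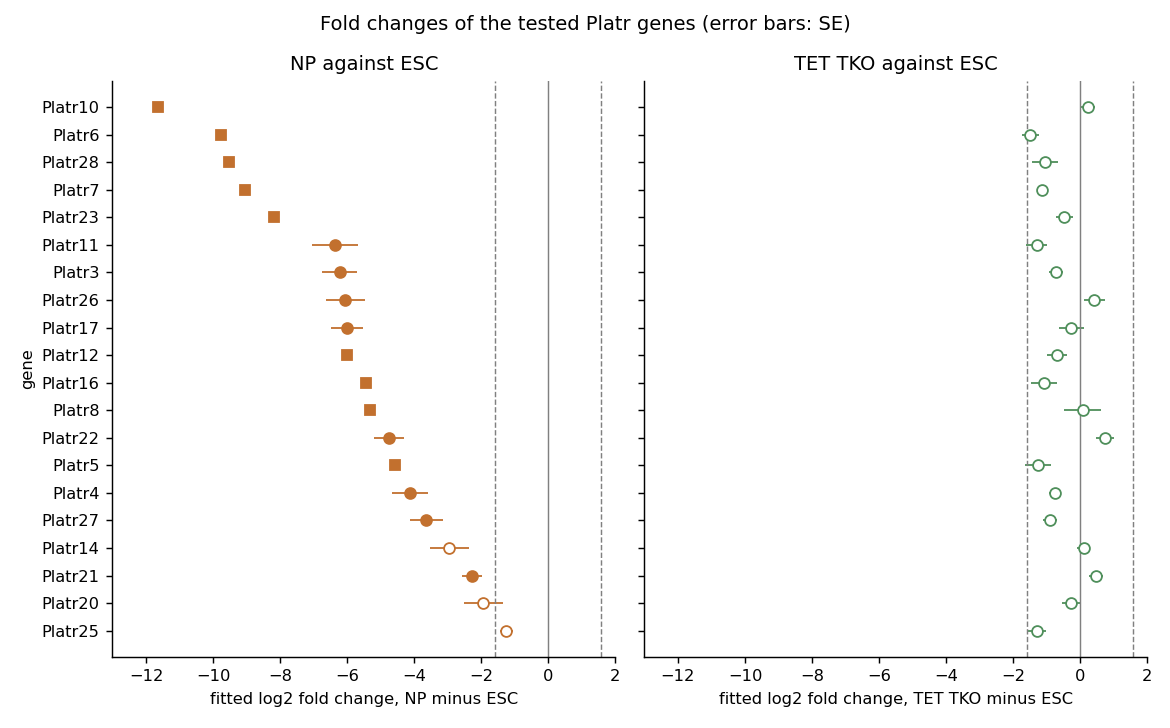
Fitted log2 fold change of the 20 tested Platr genes in NP (left) and TET TKO (right) against ESC. Bars are SE, filled symbols are called genes, squares are genes with 3 or fewer counts over the 3 NP libraries, whose fitted value depends on the prior count of the fit and is shown without SE, and dashed lines mark a 3-fold difference. All 20 values lie below 0 in NP, 17 of them called, and in TET TKO none is called.

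Of the 10 genes that did not pass the filter, 6 had enough ESC counts for a bound or ratio. Platr1 (20 counts in ESC), Platr9 (18), Platr19 (14), Platr29 (6) and Platr32 (5) had 0 counts in NP, which made them at least 6.77-, 6.09-, 4.74-, 2.03- and 1.69-fold lower. Platr31, with 22 counts against 1, had a ratio of 22.3 (3.61 to 922). Platr15, with 2 counts against 0, was at the floor in both, as were Platr2, Platr13 and Platr30.

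The 3 NP libraries did not hold the residual signal evenly. Of the 8 Platr genes with 10 or more counts in an NP library, 7 were highest in the second NP library and 1, Platr25, in the third. The 5 of these that were called lower were all highest in the second, as were 65.2% of all 1061 genes called lower in NP with such counts. Among all 17 Platr genes called lower, most of them with a handful of NP reads, 6 were highest in the first library, 8 in the second and 3 in the third, and over all genes called lower the second was highest for 60.1%. Among the 5 ESC markers, Pou5f1, Nanog, Zfp42 and Esrrb were each highest in the second NP library and summed to 2.93, 5.87 and 1.94 RPKM in the 3 NP libraries, against 1120 to 1160 in ESC. Sox2, which neural progenitors also express, stood at 62.5, 49.2 and 50.3 RPKM and was highest in the first. The summed neural markers were lowest in the second library, at 406, 211 and 317 RPKM. What set the second library apart was not tested.

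**Figure D3:**
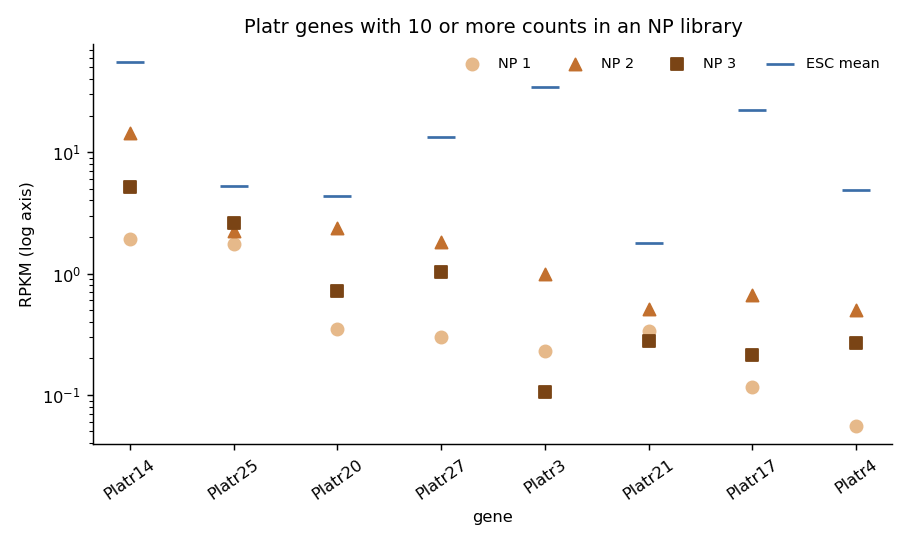
RPKM (log axis) of the 8 Platr genes with 10 or more counts in an NP library, in each NP library, with the mean of the 3 ESC libraries as a bar. The second NP library (triangles) is highest for 7 of the 8 genes, and every NP value lies below the ESC mean.

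In TET TKO the 30 genes summed to 336, 399 and 323 CPM, a mean of 353 ± 40.6 (SD, n = 3) or 99.2% of the ESC mean, and these libraries lay on both sides of the ESC libraries. By edgeR's quasi-likelihood test, 0 of 20 tested Platr genes were called lower, at a background of 1.29% of 13939 genes, and 0 were called higher, at a background of 0.847%. DESeq2 also called 0 in either direction, where it called 3.63% of all genes lower and 2.9% higher. At an unadjusted p under 0.05, 10 were lower and 1 was higher, where 21.8% of all genes tested were lower and 23.3% higher. In the same edgeR fit, at an adjusted p under 0.05 with no limit on the fold, 8 were lower and 0 higher. There 16.0% of all genes tested were lower and 17.6% higher.

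The sum hid a shift within the family. Platr10 and Platr14 together made up 66.7% to 70.6% of the Platr counts in TET TKO, against 52.7% to 58.2% in ESC. The share of each gene alone overlapped between the groups. For Platr10 it was 30.2% to 45.5% in TET TKO and 27.1% to 33.2% in ESC, and for Platr14 21.2% to 37.8% and 19.5% to 31.1%. Platr10 had 80.9, 104 and 55.9 RPKM and Platr14 had 60.9, 53.6 and 77.3, with log2 fold changes of 0.23 ± 0.21 and 0.10 ± 0.20 and adjusted p-values of 0.444 and 0.736 (edgeR). Both ranges overlapped those of ESC, and the sign for Platr14 turned when 1 library was left out in 2 of the 6 fits. Over the 26 genes with a ratio, 19 were lower and 7 higher in TET TKO, with a median pooled log2 ratio of -0.61. These counts include ratios near 1, such as 1.08 for Platr1 and 1.04 for Platr9 in favour of ESC and 1.08 for Platr8 in favour of TET TKO. Platr32, among the lower, had 5 counts in each group. Over the 20 tested genes the median fitted log2 fold change was -0.71, against 0.02 over all genes tested. Of these 20 genes 14 had a value below 0, as did 6797 of all 13939 genes tested.

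**Figure D4:**
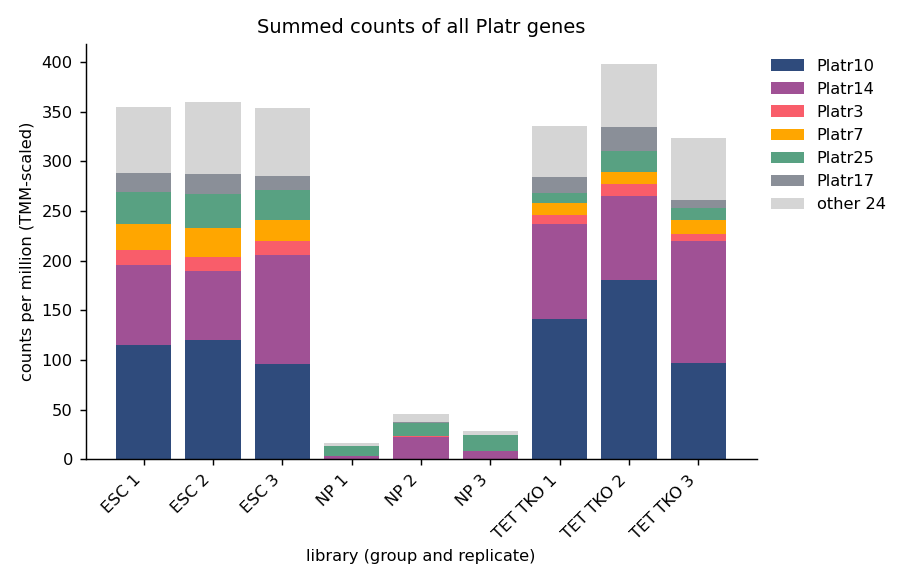
Summed CPM of the 30 Platr genes in each library, split into 6 abundant genes and the other 24. The ESC libraries reach 354 to 360 CPM, the TET TKO libraries 323 to 399, and the NP libraries 16.4 to 45.3, and the share of Platr10 and Platr14 is larger in TET TKO than in ESC.

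The 8 genes that were lower in TET TKO at an adjusted p under 0.05 differed by between 1.66- and 2.80-fold. Platr6 had 0.834, 1.23 and 0.982 RPKM (log2 fold change -1.49 ± 0.25, adjusted p of 0.00386, edgeR) and Platr7 had 9.30, 8.99 and 10.3 RPKM (-1.13 ± 0.17, adjusted p of 0.00282). Platr11 had 6.98, 3.47 and 7.23 RPKM (-1.30 ± 0.32), Platr25 had 1.58, 3.40 and 2.00 (-1.29 ± 0.27) and Platr5 had 0.521, 0.930 and 0.466 (-1.27 ± 0.39). Every TET TKO library of these genes lay below every ESC library. Platr27 had 7.79, 9.24 and 6.10 RPKM (-0.90 ± 0.22), Platr4 had 2.98, 3.66 and 2.81 (-0.74 ± 0.18) and Platr3 had 20.6, 28.8 and 18.2 (-0.73 ± 0.21). For these 3 the groups did not overlap either, and their differences were within 2-fold. Which genes passed 0.05 depended on the fit. In the edgeR fit without a filter Platr3, Platr4 and Platr5 missed it, at adjusted p-values of 0.0656, 0.0578 and 0.0795. By DESeq2 Platr5 missed it (0.0732) and Platr28 passed it (0.0421). Platr22, which was higher in TET TKO, passed it in both, at 0.0436 and 0.0429.

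Other genes were below ESC without passing that limit in the main edgeR fit. Platr12 had 2.66, 2.78 and 1.46 RPKM in TET TKO (adjusted p of 0.124, edgeR), Platr16 had 0.741, 0.695 and 0.558 (adjusted p of 0.0597) and Platr28 had 0.852, 1.58 and 2.52 (adjusted p of 0.0753). All their TET TKO libraries were below all ESC libraries. Counting all 30 genes, this held for 12, at a background of 14.1%, while 3 had all TET TKO libraries above ESC, at a background of 18.9%, and 15 overlapped.

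The genes that lay above ESC were Platr21, Platr22 and Platr29. Platr22 had 2.73, 4.40 and 5.04 RPKM against 2.15 to 2.29 in ESC (log2 fold change 0.75 ± 0.27, adjusted p of 0.0688, edgeR). Platr21 had 2.12, 3.30 and 2.67 RPKM (0.46 ± 0.21, adjusted p of 0.125). Platr29 had 24, 28 and 37 counts in TET TKO and 3, 2 and 1 in ESC. Scaled to library size this was a ratio of 4.28 (1.89 to 12.0), with an adjusted p of 0.028 in the edgeR fit without a filter, so it was not called.

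A set of 5 further genes overlapped between the groups. Platr26 had 11.1, 7.10 and 16.3 RPKM in TET TKO (0.42 ± 0.31), Platr17 had 20.4, 30.0 and 9.93 (-0.26 ± 0.37) and Platr20 had 3.29, 3.26 and 5.35 (-0.26 ± 0.28). Platr23 had 1.70, 2.25 and 1.56 RPKM (-0.47 ± 0.25) and Platr8 had 1.35, 2.96 and 0.602 (0.07 ± 0.54). In Platr8 and Platr17 the 3 TET TKO libraries differed among themselves more than the group means did, and the sign of each turned without 1 of them. Platr31, one of the genes below ESC in every library, with 22 counts in ESC and 23 in the deeper TET TKO libraries, had a pooled ratio of 3.32 (1.76 to 6.22) in favour of ESC, and its adjusted p without a filter was 0.0646 (edgeR).

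The position of the Platr genes was not used to choose them, so their nearest protein-coding genes were compared as well. For 12 of the 30 genes this neighbour lay within 10 kb, and 5 of these overlapped it. The 30 genes had 29 distinct neighbours, of which 25 were tested in NP: 11 were called lower, 1 higher and 13 not. Their median log2 fold change was -1.65. In that fit 9.98% of all genes tested were called lower and 12.4% higher. Of the 17 Platr genes called lower, 8 had a neighbour called lower, with Zfp281 counted for both Platr22 and Platr23. A further 1 had a neighbour called higher, 7 had one that was not called and 1 had one that was not tested. Among the other Platr genes 4 had a neighbour called lower, 6 one that was not called and 3 one that was not tested. Within 10 kb, the neighbour was called lower for 2 of the called Platr genes, not called for 4 and not tested for 1. For the other Platr genes it was called lower for 3, not called for 1 and not tested for 1. In TET TKO 0 of 25 neighbours were called in either direction, with a median of -0.18. There edgeR called 1.29% of all genes tested lower and 0.847% higher. DESeq2 called 2 neighbours lower and 1 higher there, where it called 3.63% of all genes lower and 2.9% higher.

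Platr23 and Zfp281, which encodes a zinc-finger transcription factor of ESC, start 251 bases apart on opposite strands of chromosome 1. Zfp281 had 40.1, 41.4 and 34.0 RPKM in ESC and 9.44, 11.1 and 14.1 in NP, a log2 fold change of -1.75 ± 0.17 at an adjusted p of 4.88e-05 (edgeR). Both fell, but Zfp281 kept a substantial level where Platr23 had 1 count left. Zfp281 is also the nearest gene to Platr22, 66157 bases away. Plcb4, a phospholipase C gene 6947 bases from Platr3, fell from 6.91, 7.01 and 5.76 RPKM to 1.66, 1.33 and 1.50 (-2.15 ± 0.16). Ncoa3, a nuclear receptor coactivator gene 6711 bases from Platr29, fell from 45.8 to 54.4 RPKM to 14.5 to 19.5 (-1.65 ± 0.15).

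Some genes that overlap a Platr gene also fell. Tigar, a fructose bisphosphatase gene antisense to Platr31, fell from 27.2 to 29.2 RPKM to 7.60 to 8.87 (-1.81 ± 0.11). Alpk3, a kinase gene with Platr32 inside it on the same strand, fell from 8.43 to 9.69 RPKM to 0.187 to 0.549 (-4.60 ± 0.33), and the 5 ESC counts of Platr32 were few beside the 1157 to 1535 counts of Alpk3. Trap1a, which overlaps Platr21 on the opposite strand, had 112, 115 and 113 RPKM in ESC and between 2.31 and 39.6 in NP (-2.73 ± 0.77, adjusted p of 0.0133, edgeR, not called). Like most Platr genes with counts in NP, it was highest in the second NP library. Cga and Gpr1, which overlap Platr9 and Platr12, had at most 0.0544 and 0.358 RPKM in any library and were not tested.

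Other close neighbours were not called. Serpini1, the neuroserpin gene 3950 bases from Platr10, had 1.20, 1.04 and 1.15 RPKM in ESC and 1.48, 0.734 and 0.965 in NP (-0.11 ± 0.28, adjusted p of 0.746, edgeR). Platr10 itself went from 63.1 ± 7.21 (SD, n = 3) to 0.0168 ± 0.0147 RPKM. Adipor1, an adiponectin receptor gene 2276 bases from Platr1, had a log2 fold change of -0.01 ± 0.11, and Lin7c, a scaffold protein gene 1392 bases from Platr8, one of -0.35 ± 0.10. Daxx, a histone chaperone gene 2738 bases from Platr17, was lower by less than 3-fold (-0.96 ± 0.10, adjusted p of 6.67e-05, edgeR).

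More distant neighbours called lower in NP were Jade1 (-2.88 ± 0.18), Sgk1 (-5.50 ± 0.28), Eomes (-3.57 ± 0.41), Zfp990 (-4.71 ± 0.42), Rbmxl2 (-5.13 ± 0.50) and Gm10324 (-7.21 ± 0.75), on the log2 scale. They lie between 32.1 and 252.2 kb from Platr4, Platr6, Platr11, Platr16, Platr28 and Platr2, respectively. Arl4c, a small GTPase gene 52.7 kb from Platr5, was the neighbour called higher, at 28.0, 33.3 and 19.2 RPKM in NP against 1.45, 1.68 and 1.25 in ESC (4.18 ± 0.23).

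**Figure D5:**
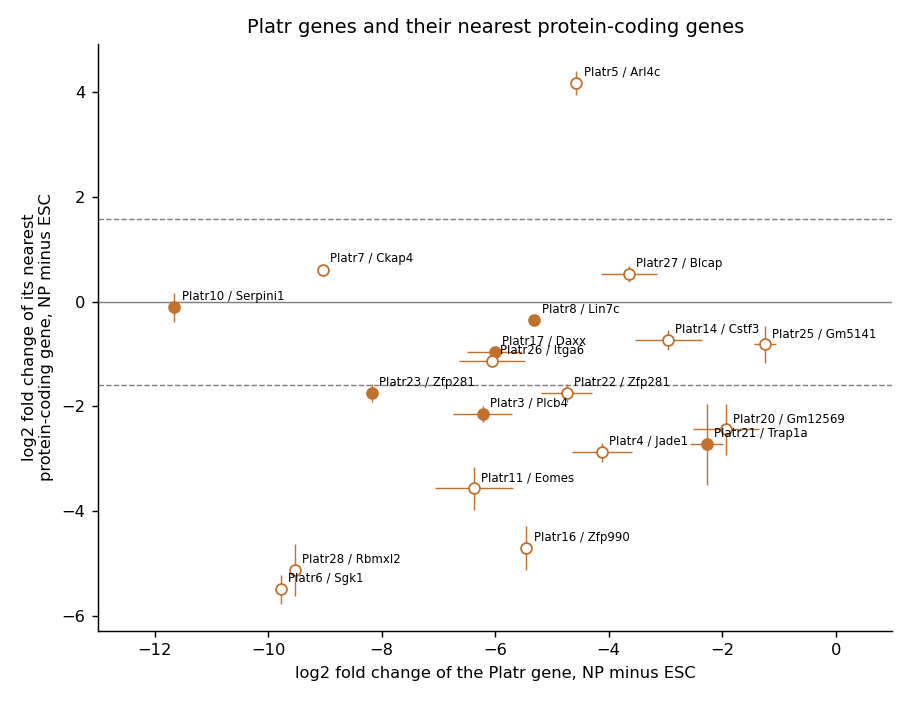
Log2 fold change in NP against ESC of 19 tested Platr genes (horizontal axis) and of their nearest tested protein-coding genes (vertical axis), with SE, except for Platr genes with 3 or fewer NP counts. Filled points are the 6 pairs less than 10 kb apart and dashed lines mark a 3-fold difference. Neighbours range from Arl4c at 4.18 to Sgk1 at -5.50, and Serpini1 beside Platr10 lies near 0.

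Beside the Platr genes, a list of 25 pluripotency-associated genes was lower in NP. All 25 were called lower, beside 9.98% of all genes tested, with a median log2 fold change of -6.86. The list was chosen with earlier results of these data known, so this count is a description and no independent test. Tcl1 (-11.27 ± 0.31), a coactivator of AKT kinase, and Tdgf1 (-10.41 ± 0.52), a coreceptor of NODAL signalling, fell most. In TET TKO 2 of the 25 were called lower and 0 higher, with a median of -0.34, beside 1.29% and 0.847% of all genes tested. These 2, named after their values were seen, were Zfp42 (-2.70 ± 0.16), an ESC zinc-finger gene, and Tet1 (-2.38 ± 0.14), which is itself a targeted gene. Dppa3 (3.31 ± 0.41, adjusted p of 0.00132, edgeR) and Tbx3 (-3.13 ± 0.48, adjusted p of 0.00292) differed by more but missed the limit on p. They too were named after their values were seen.

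The other long noncoding RNAs that were listed moved in both directions in NP. Of 26 listed, 25 were in the tables and 18 were tested in NP: 3 were called lower, 5 higher and 10 not, with a median log2 fold change of -0.06. In that fit 9.98% of all genes tested were called lower and 12.4% higher. This list too was chosen with earlier results of these data known, so its counts depend on the choice and are a description. Lncenc1, an RNA abundant in naive ESC, fell from 138, 133 and 151 RPKM to 1.09, 7.17 and 1.90 (-5.39 ± 0.63), and Neat1, the scaffold of nuclear paraspeckles, fell from 6.30, 6.19 and 8.07 to 0.531, 1.57 and 0.694 (-2.89 ± 0.37). Both were highest among NP in the second library. Hotairm1, a transcript of the HoxA cluster, rose from 0.0397 to 0.183 RPKM in ESC to 22.5 to 34.8 in NP (7.98 ± 0.41), and Pantr1, a transcript of neural tissue beside Pou3f3, went from 0 in every ESC library to 7.75, 4.90 and 12.2 RPKM. In TET TKO 0 of 14 tested were called in either direction, with a median of 0.45, beside 1.29% of all genes called lower and 0.847% higher. DESeq2 called 1 of the list higher there, where it called 2.9% of all genes higher.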

How the data were processed

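Gene counts of 9 RNA-seq libraries were analysed. The authors deposited raw counts per gene: single-end reads of stranded mRNA libraries were aligned to GRCm38 with STAR 2.6.1b and counted over exons of Ensembl 89 with featureCounts 1.6.2, without strand. Groups were taken from the sample labels. Symbols and gene types came from GENCODE M21, and the members and gene lists were chosen with earlier results of these data known.

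Libraries were scaled by TMM, and each comparison with ESC was tested by edgeR's quasi-likelihood F-test (version 4.0.16, R 4.3.3) on genes reaching 1 RPKM in any library fitted, with Benjamini-Hochberg adjustment over all of them. A gene was called at an adjusted p below 0.001 and a fold of at least 3, after the study's methods. RPKM and CPM were computed here from the counts, with exon lengths from the tables and TMM scaling over the 9 libraries. Members with few counts are given as ratios of pooled counts with exact 95% intervals, or as bounds against a floor of 3 counts over a group. The SE of a log2 fold change was derived from the fitted value and its F statistic.

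All Platr genes are named, with values in every library for those called or highly expressed; of neighbours, those within 10 kb or called; of each other list, the 2 largest falls and 2 largest rises among genes called in NP. Alternatives were library sizes alone, DESeq2 1.42.0, no filter or 10 counts in every library, a fit of all 3 groups together, a replicate block, an adjusted p below 0.05 alone, CPM in place of RPKM, TET TKO counts thinned to 21602345 (the ESC median), and each library left out. Columns that matched no sample numbered 0. Sequence similarity was searched with blastn 2.17.0 and calculations used Python 3.11.15. The methylation tables of inserted fragments were not used here.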

Additional observations from a re-analysis of the deposited data

How the results depend on the processing

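The count of Platr genes called lower in NP was 17 and lay between 16 and 20 under library sizes alone, DESeq2, no filter, all 3 groups in the fit, the replicate block and an adjusted p below 0.05 alone, and between 12 and 17 when a library was left out. With a minimum of 10 counts in every library it was 1, since that minimum removes genes absent from NP. The count called higher was 0 throughout. In TET TKO 0 were called in either direction under every alternative except an adjusted p below 0.05 alone, with 8 lower. Without a filter, 1 pluripotency gene, 1 other long noncoding RNA and 1 neighbour were called higher and 1 neighbour lower in TET TKO, and 8 other long noncoding RNAs higher in NP. DESeq2 called 1 pluripotency gene, 1 other long noncoding RNA and 1 neighbour higher and 2 neighbours lower in TET TKO. Platr genes highly expressed in NP numbered 4 with library sizes alone, 4 by CPM, and 2 to 4 when a library was left out.

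The log2 fold change in TET TKO changed sign for Platr8 (0.07) with library sizes alone (-0.0025), with thinned counts (-0.04), with the replicate block (-0.18) and with a library left out (-0.0011, -0.04 and -0.66, in a range of -0.66 to 0.47), for Platr14 (0.10) with a library left out (-0.04 and -0.06, in a range of -0.06 to 0.29) and for Platr17 (-0.26) with a library left out (0.07, in a range of -0.65 to 0.07). The cause was not tested, and each of these 3 values was smaller than its SE.

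Replicate numbers showed no pairing of ESC with NP libraries. Correlations of same-numbered deviations were -0.063, 0.015 and -0.135, and those of other pairs lay between -0.103 and 0.127. For ESC and TET TKO the same-numbered values were -0.089, 0.338 and 0.236, against -0.421 to 0.203 for other pairs. The highest values there were same-numbered, and the labels do not say whether the libraries are paired. With the replicate block, 16 Platr genes were called lower in NP (Platr5 and Platr16 dropped out and Platr14 came in) and 0 in TET TKO.

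Over all genes, 1516 were called lower and 1880 higher in NP, 2588 and 2693 without a filter and 863 and 1399 with 10 counts in every library. In TET TKO 180 and 118 were called, 506 and 404 by DESeq2, 689 and 574 without a filter, 334 and 255 with the replicate block, and 38 to 179 and 12 to 115 when a library was left out. Calls in TET TKO therefore rest on few libraries, and 10 Platr genes had too few counts for the main test.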
